A study of Homo sapiens with 16 samples.

Results

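The RNA that stayed at the interphase after conventional extraction was compared with the RNA of the aqueous phase in unstressed HEK293 cells, an established line derived from human embryonic kidney. The comparison used 4 of the 16 libraries of the series, 2 biological replicates of the SERIPH 1st-step fraction (aqueous phase) and 2 of the SERIPH 2nd-step fraction (interphase). These 4 were chosen by the fraction and treatment named in their labels. The cells were wild type and received no treatment. The 1st-step libraries were made from 100 to 500 ng of RNA and the 2nd-step libraries from 5 to 50 ng, and only the interphase was heated, for 10 min at 55 °C, so that fraction, heating and library input cannot be told apart. For comparison, 4 control libraries of conventional and heat-assisted improved (hiAGPC) preparations and 4 SERIPH libraries of cells given 200 mM sorbitol and 100 µg/mL cycloheximide for 9 h were used. Expression of kidney or HEK293 marker genes was not analysed here.

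Acid guanidinium thiocyanate-phenol-chloroform (AGPC) reagents split a lysate into an aqueous phase that holds most RNA, an organic phase, and an interphase rich in protein and DNA. Semi-extractable RNAs are those that conventional AGPC recovers poorly and that heating or shearing releases, many of them nuclear and bound in large protein assemblies. Downstream-of-gene transcripts (DoGs) are nuclear RNAs made when RNA polymerase II reads past the end of a gene, after the cleavage signal was not used or termination was delayed. Stress induces many of them, and unstressed cells hold a smaller set.

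Region lists and expression values were used. The lists were those of DoG regions called in each library, with a minimum length of 10 kb past the gene end. Expression was the FPKM (fragments scaled to the length of the region and to the size of the library) of 3139 DoGs in every library. FPKM was given over 1 region per gene, which for 98.0% of DoGs was as long, within 1 bp, as the longest region listed in any library. Most of these regions came from stressed cells, since 2328 of the 3139 DoGs were listed in none of the 8 control libraries. FPKM is relative to the library, so more DoG RNA and less of other RNA cannot be told apart. Reads could not be recovered from values rounded to 0.01, so the depth of each library is unknown. The paper gives only a nominal range of depths over the samples.

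The replicates of the 2nd step lay close to each other, and those of the 1st step were farther apart. On the scale log2(FPKM + 0.1), the replicate difference across 3139 DoGs had an SD of 0.17 in the 2nd step and 0.26 in the 1st step. The 2nd replicate of the 1st step was nearer to the conventional libraries (SD of 0.17 against each) than to its own replicate. Between the fractions, the SD of the difference was 0.63 to 0.68.

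DoG-producing genes were about 2.2 times as many in the interphase list as in the aqueous list. The 1st-step libraries listed 289 and 326 genes and the 2nd-step libraries 689 and 667. The groups did not overlap, with means of 307.5 ± 26.2 and 678 ± 15.6 (SD, n = 2). With 2 against 2 libraries, a two-sided exact permutation test cannot go below p = 0.333, which is the value it gave. The listed regions summed to 3.84 and 4.34 Mb in the 1st step and to 15.2 and 14.7 Mb in the 2nd step. Regions of 100 kb or more numbered 0 in both 1st-step libraries and 20 in each 2nd-step library.

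**Figure D1:**
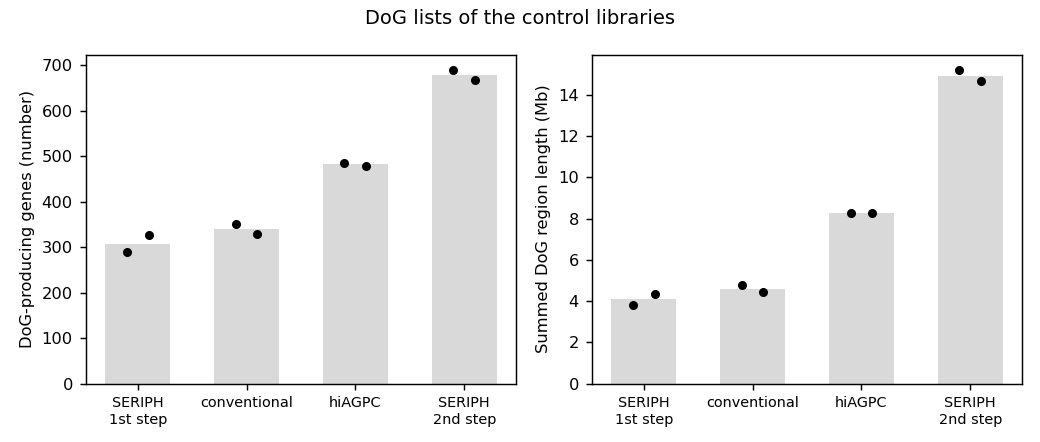
Genes with a DoG in the list of each library (left, number) and their summed region length in Mb (right) for the 4 preparations of control cells. Points are the 2 libraries of each group and bars their mean, and the 2nd-step libraries lie above all others with 689 and 667 genes.

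Most genes reproducible in the aqueous phase were also reproducible in the interphase. Most of those reproducible in the interphase were not reproducible in the aqueous phase, though some were listed there once. Both replicates of the 1st step listed 226 genes and both of the 2nd step 595, with 192 in common. These were 85.0% of the 1st-step list and 32.3% of the 2nd-step list. Of the 403 genes reproducible in the 2nd step alone, 107 were listed in 1 of the 1st-step libraries and 296 in neither. Of the 34 genes reproducible in the 1st step alone, 11 were listed in 1 of the 2nd-step libraries and 23 in neither. The 1st-step lists repeated less well, since 58.1% of the genes listed in either replicate were in both, against 78.2% in the 2nd step.

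Presence on a list did not always go with a large difference in FPKM. The lists and FPKM come from the same 4 libraries, so the direction below is fixed by the choice of genes and is given as a description. Of the 296 genes listed only in the 2nd step, 288 had FPKM, and their median FPKM was 0.25 and 0.26 in the 1st-step libraries and 0.78 and 0.74 in the 2nd-step libraries. Among these 288, 173 were called higher in the 2nd step, 3 lower, and 112 were not called, by the FPKM rule that called 344 (11.0%) of 3139 DoGs higher and 103 (3.28%) lower. Of the 23 genes listed only in the 1st step, 21 had FPKM, of which 8 were called lower in the 2nd step, 0 higher by limma, and 13 were not called. The choice did not use the hiAGPC and conventional libraries, which the paper describes as other preparations of the same samples. In them, 103 of the 296 (34.8%) were reproducible in hiAGPC and 14 (4.73%) in conventional RNA. For the 23 genes, these were 14 (60.9%) and 19 (82.6%). For the 192 genes reproducible in both fractions, they were 184 (95.8%) and 173 (90.1%).

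The regions themselves also reached farther in the interphase for part of the shared genes. Over the 192 genes reproducible in both fractions, the mean region length had a median of 11.25 kb in the 1st step and 15.0 kb in the 2nd step. The median ratio per gene was 1.0 because 87 genes had equal lengths, 87 were longer and 18 shorter in the 2nd step, and the geometric mean ratio was 1.31. Both 2nd-step regions were longer than both 1st-step regions for 51 genes (26.6%) and shorter for 3 (1.56%). Lengths advance in windows of 5 kb, and 96 of the 192 genes stood at the 10 kb minimum in both 1st-step libraries.

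The largest length ratio was that of LYPLAL1, which encodes a lysophospholipase-like protein. Its region measured 10.0 kb in both 1st-step libraries and 215 and 200.0 kb in the 2nd step. The region of UCHL3, a ubiquitin hydrolase, measured 10.0 kb in both 1st-step libraries and 115 kb in both 2nd-step libraries. BUB3, a spindle checkpoint protein, had 35.0 kb in both and 370.0 kb in both. The lengths did not overlap between the fractions in these 3 genes, as in 26.6% of the 192 shared genes with the 2nd step longer. The longest region of each of the 3 also reached over other annotated genes on the same strand. VTI1A, a vesicle SNARE, went from 10.0 kb in both to 65.0 and 80.0 kb, and BTG1, an antiproliferative factor, from 15.0 kb in both to 110.0 and 105 kb. At the other end were ISG20L2 (25.0 and 10.0 kb in the 1st step, 10.0 kb in both of the 2nd), ANO7 (15.0 and 20.0 kb, then 10.0 kb in both) and FOXC1 (25.0 and 20.0 kb, then 20.0 and 10.0 kb). Of these 3, the replicate ranges were separate for ANO7 alone. PBDC1, whose ratio of 0.667 ties with that of FOXC1, had 15.0 kb in both 1st-step libraries and 10.0 kb in both 2nd-step libraries.

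In FPKM, more DoGs were higher in the interphase than lower. A DoG was called at an adjusted p-value under 0.05 (limma, Benjamini-Hochberg over 3139 DoGs) and a log2 fold change of 1 or more in either direction. By this rule 344 DoGs were higher and 103 were lower in the 2nd step, shares of 11.0% and 3.28%, and the median over all DoGs was 0.17 on the log2 scale. Both 2nd-step values lay above both 1st-step values for 1581 DoGs (50.4%) and below them for 443 (14.1%). In the fit of the whole series, all 447 DoGs past the fold had an adjusted p of at most 0.0315 by limma. The fold thus decided the call there. In a fit of the compared libraries alone, 297 were called higher and 83 lower, all among the same 447. The others past the fold failed on the adjusted p in that fit. Centring each library on its own median moved the median log2 fold change from 0.17 to -0.07 and the calls to 188 higher and 158 lower. All 188 were among the 344 and all 103 lower calls remained.

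**Figure D2:**
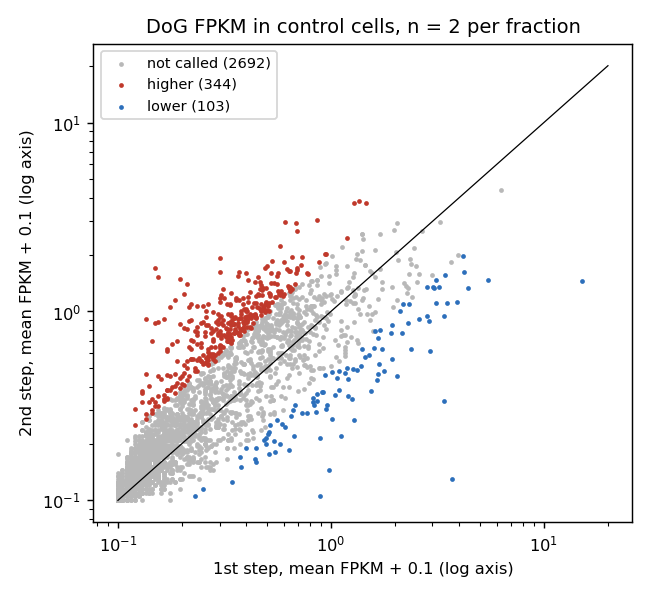
Mean FPKM + 0.1 of 3139 DoGs in the 2nd step (vertical) against the 1st step (horizontal) of control cells, n = 2 libraries each, both axes logarithmic. Red points are the 344 DoGs called higher and blue points the 103 called lower, and the line marks equal values.

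The sequences at the ends of a few of these genes are shown because a DoG starts where the transcript should have been cut. Each is the last 30 bases before the DoG region on the transcribed strand of GRCh38, with capitals marking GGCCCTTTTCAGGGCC (the longest run shared by the H4 histone genes among the 10 lowest fold changes, which is the stem-loop at which replication-dependent histone transcripts are cleaved) and the polyadenylation signal AATAAA. Its variant ATTAAA was searched as well, and only the transcribed strand was searched.
H4C4: aaaaccaacGGCCCTTTTCAGGGCCaccta
H4C7: atcgttaatGGCCCTTTTCAGGGCCgcgta
H4C11: cAATAAAaGGCCCTTTTCAGGGCCacccta
SERINC1: acctctaAATAAAtgaattcagagaaagtg
BUB3: tcttcattttaaAATAAAgttttgcacatg
EP400: aaaggcaaAATAAAgtgacctttttatata
SAMD5: aaaaagcaggtcctccttttgggacagtga
The windows lie at chr6:26188710-26188739 (H4C4, minus strand), chr6:26246611-26246640 (H4C7, minus), chr6:27824451-27824480 (H4C11, plus), chr6:122443348-122443377 (SERINC1, minus), chr10:123170438-123170467 (BUB3, plus), chr12:132080431-132080460 (EP400, plus) and chr6:147737518-147737547 (SAMD5, plus).

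The stem-loop letters were in 4 of 3135 windows (0.128%), those of H4C4, H4C7, H4C11 and H4C5. The first 3 were used to find the letters, and they were picked from the lowest fold changes, so nothing is read from their direction. H4C5 was also called lower, as were 3.28% of all DoGs. AATAAA or ATTAAA was in 53.1% of all windows, in 55.5% of those of DoGs called higher and in 45.6% of those called lower. SAMD5, which rose, holds neither signal in its window.

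The highest fold changes, those of HCCS-DT and SAMD5, belonged to DoGs that were near the floor in the aqueous phase. The DoG of HCCS-DT, a lncRNA transcribed divergently from the gene of a heme lyase, had an FPKM of 0.06 and 0.04 in the 1st step and 1.55 and 1.64 in the 2nd step. Its log2 fold change was 3.50 (SE 0.15, adjusted p = 8.18e-09 by limma). SAMD5, a gene for a SAM domain protein, had 0.05 and 0.06 against 1.41 and 1.42, a log2 fold change of 3.29 (SE 0.08). In both DoGs the 2 fractions were well apart and the replicates close together. BUB3 had 0.19 and 0.21 against 1.89 and 1.77 (log2 fold change 2.69), and FTX, a nuclear lncRNA of the X-inactivation centre, had 0.10 and 0.11 against 0.98 and 1.28 (2.57). SUMF1, which activates sulfatases, had 0.05 in both against 0.79 and 0.75 (2.54). The other 5 of the 10 highest were CD200R1L-AS1, OR2AG2, THOC3, BALR6 and OR2D2, with log2 fold changes from 2.59 to 2.93. Each of the 10 was listed in both 2nd-step libraries, and BUB3 alone was listed in the 1st step. OR2AG2 and OR2D2 are olfactory receptor genes on chromosome 11, and THOC3 encodes a subunit of the THO complex of mRNA export. THOC3 starts its DoG 1196 bp past the gene end in GENCODE v44.

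The lowest fold changes included 4 histone genes. The DoG region of H4C4, a replication-dependent histone H4 gene, had an FPKM of 4.10 and 3.12 in the 1st step and 0.03 in both libraries of the 2nd step. Its log2 fold change was -4.82 (SE 0.10, adjusted p = 4.25e-11 by limma). PTGES3, a co-chaperone gene, had 17.29 and 12.78 against 1.24 and 1.47 (-3.37), and GTF2H1, a gene of the transcription factor TFIIH, had 3.56 and 3.07 against 0.24 and 0.23 (-3.35). These regions reached over other genes on the same strand, that of H4C4 over H1-2 and H2BC4 among others, that of PTGES3 over ATP5F1B of the ATP synthase, and that of GTF2H1 over LDHA of glycolysis. None of the 3 was listed as a DoG in any of the 4 libraries. H4C7 had 0.93 and 0.65 against 0.01 and 0, and H4C11 had 0.95 and 0.81 against 0.04 and 0.05. The other 5 were H2BC26, TSPYL1, NEK6, TLR9 and HOXA10-AS, with log2 fold changes from -2.30 to -2.05. NEK6, a mitotic kinase gene, is the one of these 10 whose region met no other gene of the same strand, with 2.81 and 2.82 against 0.57 and 0.47 FPKM.

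**Figure D3:**
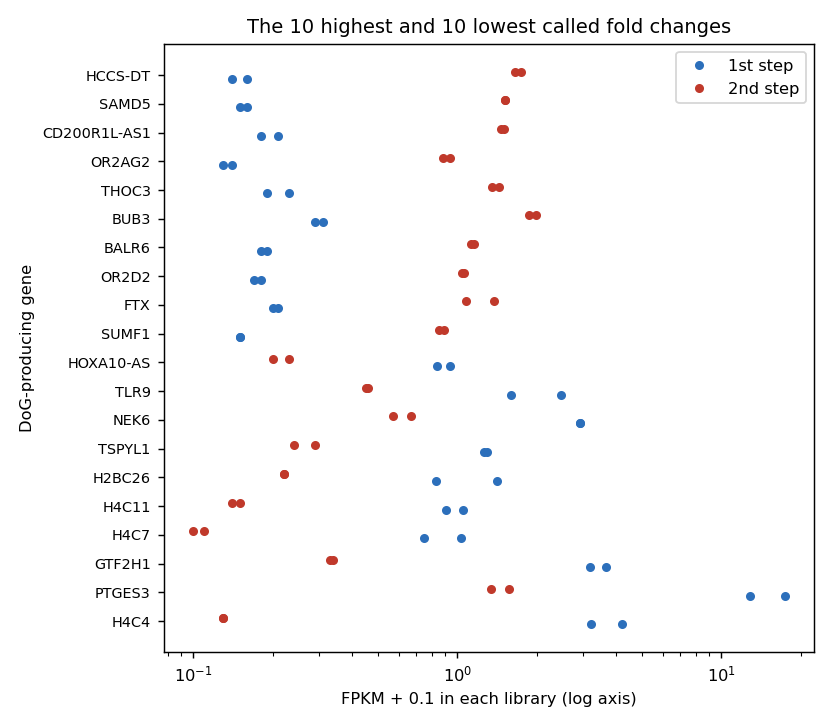
FPKM + 0.1 in each library (logarithmic axis) for the DoGs with the 10 highest and 10 lowest called log2 fold changes, 1st step in blue and 2nd step in red. The 20 were chosen for their fold changes, and over all DoGs the 2 fractions do not overlap for 50.4% (2nd step above) and 14.1% (below). HCCS-DT and H4C4 mark the ends with log2 fold changes of 3.50 and -4.82.

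Overlap with other genes differed between the classes. The FPKM region met another protein-coding or lncRNA gene of the same strand for 82 of the 103 lower DoGs (79.6%), for 130 of the 344 higher DoGs (37.8%) and for 40.4% of those not called. Reads of such a gene and of the DoG cannot be told apart in FPKM. The part of the overlapped genes in the lower values was not tested. Among DoGs whose regions met no such gene, 214 were higher and 21 were lower. The genes upstream of higher DoGs had a median length of 61.6 kb and 14 merged exons, against 16.3 kb and 8 exons for lower DoGs and 30.1 kb and 10 exons for those not called. Genes with 1 exon made up 9.71% of the lower class (10 genes) and 2.91% of the higher class, against 3.13% of those not called and 3.33% of all DoGs.

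Of the 21 lower DoGs clear of other genes, several were listed regions of the aqueous phase. SERINC1, a membrane protein gene, had an FPKM of 1.36 and 1.77 in the 1st step and 0.34 and 0.39 in the 2nd step, with regions of 10.0 kb in both 1st-step libraries and none in the 2nd. HSD17B12, an enzyme gene of fatty acid elongation, had 1.44 and 1.67 against 0.27 and 0.40, and BRCC3, a deubiquitinase gene, had 2.28 and 2.69 against 0.86 and 0.77. Their log2 fold changes were -1.83, -1.94 and -1.50. The groups did not overlap in any of the 3, which were taken from the DoGs called lower. Over all DoGs, both 2nd-step values lay below both 1st-step values for 14.1%. Also among the genes listed only in the 1st step, TET1 (log2 fold change -1.16, not called without the 2nd replicate of the 1st step, at -0.82, nor in a fit of the 4 libraries alone) had 2.25 and 3.68 against 1.30 and 1.17, and H4C15 had 1.61 and 2.03 against 0.69 and 0.64 (-1.32). The FPKM region of TET1 met another gene of the same strand, so TET1 is not among the 21. H4C14 and H4C15 are near-identical copies, so their values are uncertain. CDK1, the mitotic cyclin-dependent kinase, fell too, with 1.46 and 1.80 against 0.59 and 0.48 (-1.44).

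Of the 5 genes of highest 2nd-step FPKM among those listed only in the 2nd step, 3 were called higher in FPKM. Of all 288 such genes with FPKM 173 were called higher, against 11.0% of all DoGs. The choice by 2nd-step lists and FPKM favours this direction, so nothing is read from the count. TRMT11, a tRNA methyltransferase gene, had 0.47 and 0.55 against 2.92 and 2.85 (log2 fold change 2.29), with 2nd-step regions of 225.058 and 135 kb. EP400, a chromatin remodeller gene, had 0.61 and 0.57 against 2.59 and 2.52 (1.94). Both were higher without overlap between the fractions, as were 50.4% of all DoGs. DDX46, a splicing helicase gene, had 2.00 and 2.72 against 1.87 and 2.24, a log2 fold change of -0.18 that did not pass (adjusted p = 0.356 by limma). In GENCODE v44 its region starts inside the gene (position -24012 bp relative to the gene end), so DoG and gene reads cannot be told apart there. EIF3CL had 1.32 and 1.12 against 1.92 in both (0.62, under the fold set for a call), and it is a near copy of EIF3C, so its reads are uncertain. MFSD14CP had 0.71 and 0.85 against 1.72 and 1.75 (1.06), and lost its call when libraries were centred (0.83) and without the 1st replicate of the 1st step (0.95).

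The DoGs of highest mean FPKM over the 4 libraries were PTGES3, NOTCH1, TOP3A, ZFP14 and CS. None of the 5 was called higher, and over all DoGs 89.0% were not called higher. The NOTCH1 region, which met SEC16A, had 7.38 and 5.03 against 4.31 and 4.29 (-0.49, under the fold set for a call). TOP3A, a topoisomerase gene whose region met FLII, had 6.11 and 4.57 against 1.37 and 1.38 (-1.87). CS, the citrate synthase gene, had 4.66 and 3.47 against 1.93 and 1.80 (-1.07, and -0.86 without the 1st replicate of the 1st step, under the fold). The region of CS also met another gene of the same strand, and CS was reproducible as a DoG in neither fraction. ZFP14, a zinc finger gene, was listed at 25.0 kb in all 4 libraries, with 3.25 and 3.08 against 2.88 and 2.84 (-0.14, adjusted p = 0.267 by limma).

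Among gene lists, the replication-dependent histones held the most lower calls. Of 23 histone DoGs with FPKM, 8 were lower and 0 higher by limma, beside 3.28% lower and 11.0% higher over all DoGs. Their median on the log2 scale was -0.45 against 0.17 over all DoGs. The 8 were H4C4, H4C7, H4C11, H2BC26, H4C14, H4C15, H4C5 and H2BC17. H2BC11 was the highest member, with 0.13 and 0.18 against 0.32 in both (0.73). The regions of 13 of the 23 met another gene of the same strand, and H4C14 and H4C15 alone were listed in both 1st-step libraries. Their median stayed below 0 after centring (-0.68).

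The counts of the other lists stand beside the same 11.0% higher and 3.28% lower over all DoGs, and no list was tested. Of 43 cytosolic ribosomal protein DoGs, 4 were higher (RPS24, RPL39L, RPL6 and RPS13) and 1 was lower (RPS28), with a median of 0.15 that became -0.09 on centring. Of 31 translation factor DoGs, 3 were higher and 3 lower (median 0.12, and -0.11 centred). Of 19 respiratory chain DoGs, COX5A and NDUFA10 were higher (median 0.31, and 0.08 centred). NDUFA10, a complex I subunit gene, had 0.19 and 0.21 against 1.13 and 1.04. Of 51 splicing factor and RNA helicase DoGs, 3 were higher (DDX19B, HNRNPH3 and DDX11) and 0 lower by limma. CCT4 was the 1 chaperone of 20 that was higher. Of 67 ZNF zinc finger DoGs, 4 were higher and 2 lower, of 127 antisense lncRNA DoGs 9 were higher and 3 lower, and of 32 divergent lncRNA DoGs 4 were higher and 1 was lower. The lower divergent one was KCTD13-DT (-1.17), which lost its call without the 1st replicate of the 2nd step (-0.92). It also lost its call in a fit of the 4 compared libraries alone (adjusted p = 0.0558 by limma). Of 9 snoRNA host DoGs 0 were called by limma. The list of nuclear and architectural lncRNAs was set by gene symbol and not by where the RNA lies. Of its 3 members, FTX was higher, while NORAD had 0.06 and 0.03 against 0.01 in both. KCNQ1OT1 had 0 in both against 0.01 in both. The medians of the chaperone, zinc finger, antisense, divergent, snoRNA host, and nuclear and architectural lncRNA lists turned from above to below 0 on centring. Called members of these lists that fell under the fold on centring numbered 12, all of them higher before it, among them RPS24 (0.82), RPL39L (0.87), COX5A (0.77), DDX19B (0.83), EIF4E (0.96) and CCT4 (0.95).

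TMEM38B, a gene of an endoplasmic reticulum ion channel, had 0.23 and 0.24 against 0.93 and 1.03 (log2 fold change 1.69), with regions of 85.0 and 70.0 kb in the 2nd step and none in the 1st. RRM2, the ribonucleotide reductase subunit gene, had 0.11 and 0.08 against 0.24 and 0.22 (0.76), RPS12 0.25 and 0.33 against 0.62 and 0.60 (0.87), and ARID1B 0.06 and 0.05 against 0.07 and 0.08 (0.18). None of these last 3 reached the fold set for a call, though RPS12 did without the 2nd replicate of the 1st step (1.02), and the value of ARID1B turned to -0.06 on centring.

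In libraries that the SERIPH comparison did not use, hiAGPC differed from conventional RNA in the same direction for nearly all of these DoGs, by less. The paper states that these extractions ran alongside SERIPH on the same samples. They are thus other preparations and not new biological replicates. The hiAGPC minus conventional log2 difference was above 0 for 343 of the 344 higher DoGs and at 0 for 1, and below 0 for 103 of the 103 lower DoGs. Over all 3139 DoGs it was above 0 for 58.9% and below 0 for 26.3%. Its median was 0.58 in the higher class and -0.42 in the lower class, against 1.29 and -1.37 between the SERIPH fractions. By the same call rule, hiAGPC was higher for 34 DoGs (1.08%), which were all among the 344, and lower for 0 (0.0%). Of the 103 lower DoGs, 79 had an unadjusted p under 0.05 and 44 an adjusted p under 0.05 by limma, without reaching the fold. An unadjusted p under 0.05 was found for 308 of the 344 higher DoGs and for 801 of all 3139. Across DoGs the 2 differences had a Pearson r of 0.89 and a Spearman rho of 0.82 (n = 3139, a description, since DoGs share libraries).

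**Figure D4:**
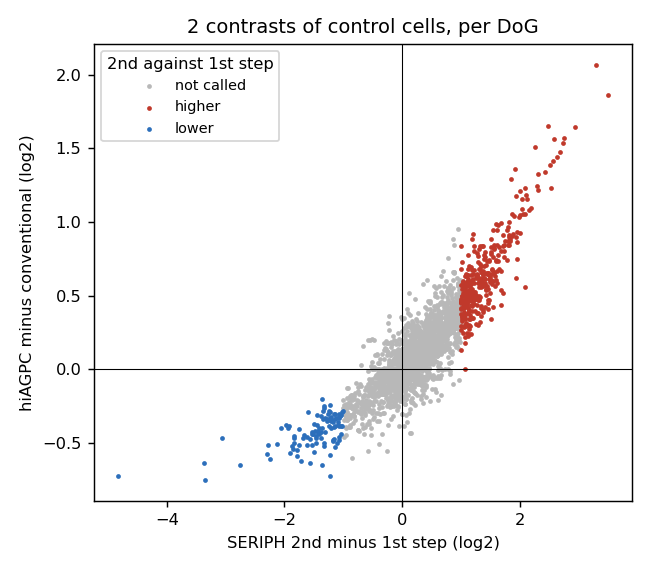
Log2 difference of hiAGPC minus conventional RNA (vertical) against SERIPH 2nd minus 1st step (horizontal) for 3139 DoGs of control cells. All blue points (lower) lie below 0 on the vertical axis and 343 of 344 red points (higher) above it, over a narrower vertical than horizontal range.

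The size of the SERIPH difference exceeded that of hiAGPC for some DoGs. The difference of the 2 differences was called higher for 36 DoGs (1.15%) and lower for 46 (1.47%), and higher for 73 without the 2nd replicate of the 1st step. All 36 were among the higher class and all 46 among the lower class. ZDHHC11, a palmitoyltransferase gene with a close paralog, had an FPKM of 0.23 and 0.22 in conventional RNA and 0.40 and 0.36 in hiAGPC, against 0.13 and 0.17 in the 1st step and 0.99 and 0.94 in the 2nd step. For H4C4, conventional RNA had 3.26 and 3.17 and hiAGPC 1.98 and 1.84, so that hiAGPC kept values far above the 0.03 of the 2nd step.

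Most DoGs of the FPKM table entered it through stressed libraries, so they were chosen in part by their level under sorbitol and cycloheximide. There 2489 DoGs (79.3%) were higher in the 2nd step and 93 (2.96%) lower, and the median difference was 1.99 on the log2 scale. The control difference was below the stressed difference for 2288 DoGs (72.9%) and above it for 132 (4.21%). Of the 344 DoGs higher in control cells, 228 were also called higher under stress, 64 had a larger difference in control cells and 82 a smaller one. With libraries centred on their medians, the control difference was above for 703 and below for 291. Of the 2288 DoGs, 2040 were among the 2328 listed in no control library. Among the 811 DoGs listed in at least 1 control library, 259 were higher and 41 lower in control cells and 395 and 69 under stress, and the control difference was above for 119 and below for 248.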

How the data were processed

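RNA-seq libraries of rRNA-depleted RNA were analysed. The authors trimmed reads with fastp 0.25.0, removed rDNA reads with Bowtie2 2.5.4, aligned to GRCh38 with STAR 2.7.11b and called DoGs per library with ARTDeco on GENCODE v49 (minimum 10000 bp, window 5000 bp, coverage 0.5). The deposited FPKM values were computed by the authors over 1 region per gene, and the reads used for scaling are not given in the sources used here. All FPKM columns were assigned to a library. Results for 1 locus are not reported here.

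FPKM was tested as log2(FPKM + 0.1), which understates changes of low values, with limma 3.58.1 in R 4.3.3, an intensity trend and all 16 libraries in 8 groups, since counts were not used here. On simulated data with 200 of 3139 DoGs changed, the fit of 2nd against 1st step recovered 200 with 0 false calls. All planted changes were well past the fold set for a call, so recovery of DoGs near that fold was not tested. Lists and sequences were handled with Python 3.11.15 and pysam 0.24.0, on GENCODE v44, which held 3495 of 3509 gene identifiers. P-values rest on a spread pooled over the 2 replicates of each group.

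DoGs named singly were the 10 highest and 10 lowest called fold changes, the 5 highest and 3 lowest length ratios, the 5 highest FPKM of each fraction's own list and of all 4 libraries, the 3 extremes of each difference of differences, the extremes of each of 11 gene lists, and genes the study names. CDK1 and the other list members were chosen after their values were seen. The comparison, lists and rule were chosen with earlier results of these data known. The alternatives were other pseudocounts, filters, centring, a replicate block, fewer libraries, no trend, the adjusted p alone, a 20 kb minimum, other ways to combine replicates, and each replicate left out.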

Additional observations from a re-analysis of the deposited data

Results flagged for a closer look

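By a tested difference of differences (limma), the control difference between the fractions was above that of stressed cells for 132 DoGs and below it for 2288. Among the 132, 64 were called higher between the control fractions, 12 lower and 56 not called. For the 2288, these were 82, 58 and 2148. Of these 2288, 2040 were listed in no control library and so entered the table through stressed cells. The lowest values were those of H4C4 (-4.96), RAB3A (-4.52) and ADAMTSL4-AS2 (-4.42), and the highest those of HCCS-DT (3.85), AGAP9 (2.93) and NEIL3 (2.81). RAB3A was at 0.02 FPKM or less in all 4 control libraries, so its value comes from a log2 difference of 4.46 under stress. NEIL3 had 1.23 and 1.47 against 1.61 and 1.71 FPKM in control cells and a log2 difference of -2.53 under stress.

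The same test against hiAGPC minus conventional RNA was passed by 36 DoGs that were higher and 46 that were lower. The lowest were H4C4 (-4.10), PTGES3 (-2.73) and H4C7 (-2.60), whose regions meet other genes of the same strand. The highest were HCCS-DT (1.64), ZDHHC11 (1.53) and ZNF146 (1.31). Without the 2nd replicate of the SERIPH 1st step, 73 DoGs were higher by this test.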

How the results depend on the processing

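The counts of DoGs called higher and lower between the fractions (344 and 103) moved by over 1.5 times with a pseudocount of 0.01 (860 and 197), a pseudocount of 1 (13 and 13), centred libraries (188 and 158), the adjusted p alone (1137 and 323), DoGs reproducible in at least 1 fraction (216 and 30) and regions free of same-strand genes (214 and 21). With FPKM regions at most 2 times the control SERIPH region, an alternative chosen after seeing the data, they were 227 and 29. The last 3 tests hold fewer DoGs by construction. A minimum mean FPKM of 0.1 and no intensity trend gave the same calls. This says little, because every DoG past the fold also passed the p-value in the main fit. In a fit of the compared libraries alone, the counts were 297 and 83, because fewer DoGs past the fold passed the p-value. Without 1 replicate they were 321 to 362 and 99 to 120, with the lone library left in a group assumed to vary like the other groups.

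Against stressed cells (132 and 2288), the counts were 12 and 512 with a pseudocount of 1, 703 and 291 centred, 250 higher by the adjusted p alone, and 82 and 1293 in regions free of same-strand genes. Against hiAGPC (36 and 46), they were 154 and 98 with a pseudocount of 0.01, 0 and 4 with a pseudocount of 1 (limma, 799 DoGs at an unadjusted p under 0.05), 15 higher when centred, 359 and 131 by the adjusted p alone, 12 lower for reproducible DoGs, and 22 and 8 in regions free of same-strand genes. Without 1 replicate, 35 to 73 were higher, the 73 without the 2nd replicate of the 1st step. Among the called DoGs, hiAGPC was higher for 71 with a pseudocount of 0.01, for 0 with a pseudocount of 1 (limma, 660 of all DoGs at an unadjusted p under 0.05) and for 238 by the adjusted p alone, and lower for 44 by the adjusted p alone.

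The list counts (192 shared, 403 and 34) became 332 shared and 57 in the 1st step only for genes in either replicate, and 31, 155 and 4 with a minimum of 20 kb. The 1st-step-only count was 48 to 55 from 1 replicate each. The median length ratio was 1.38 at a minimum of 20 kb. Leaving out either replicate of a fraction gave DDX46 a log2 fold change of -0.39 to 0.032 and GAS5 of -0.098 to 0.034, so both changed sign, DDX46 without the 2nd replicate of the 1st step. GAS5 changed sign also without the 1st replicate of the 2nd step (0.0015). ARID1B turned to -0.059 when centred. The causes were not tested.

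With the replicate number as a block, 344 DoGs were higher and 103 lower. The paper's protocol takes both fractions from the same lysate, so each 2nd-step library should have a 1st-step partner. The labels do not say that equal replicate numbers are partners. Same-numbered deviations of the fractions had r = -0.07, which with 2 replicates cannot settle the pairing. The main fit treated the libraries as unpaired. The depth of each library is unknown and limits what low FPKM, list counts and region lengths can show.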
